A study of Homo sapiens with 9 samples.

Results

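Desmosome components are the proteins of the adhesive junction that fastens neighbouring epithelial cells to each other and anchors their keratin filaments. 10 genes were chosen by name, DSP, JUP, PKP1, PKP2, PKP3, DSG2, DSG3, DSC2, DSC3 and PERP, of 58336 genes in the tables, and all 10 were found there. Each had at least 10 counts in every library used, the minimum taken here as detected, as did 12717 of the 58336 genes.

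In a desmosome, desmogleins (DSG) and desmocollins (DSC), which are calcium-dependent cadherins, bind their counterparts on the next cell. Their tails hold plakoglobin (JUP) and the plakophilins (PKP), and desmoplakin (DSP) links this plaque to keratin filaments. In epidermis the set of cadherins changes with depth: DSG3 and DSC3 belong to the lower layers, DSG1 and DSC1 to the upper ones, and DSG2 and DSC2 are best known from simple epithelia and heart muscle.

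The study sequenced RNA of HaCaT cells, keratinocytes of human skin that grow without limit in culture, in 9 samples. Its groups, 3 samples each, were ALA-PDT-12h and ALA-PDT-48h, kept for 12 h and 48 h after low-dose photodynamic therapy, and a Control. For the Control no ALA, light or time is listed. The therapy combined ALA (5-aminolevulinic acid, which cells turn into a light-sensitive porphyrin) at 0.5 mmol/L with light at 635 ± 5 nm and 3 J/cm2. The names of 6 library columns in each table give no treatment or time and could not be tied to a treated group, so they were not analysed here, and the response of the components to the treatment is not reported. The values below are those of the control columns, named Nc1, Nc2 and Nc3. Reading Nc as control is an interpretation of the name, as no label spells it out. The labels name 1 cell line and do not say whether the control samples were separate cultures, and their spread, with the p-values that rest on it, may be purely technical.

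Nc1, Nc2 and Nc3 held 16989712, 16354678 and 16702425 counts. Of 7 markers of basal keratinocytes 6 were detected, among them TP63 at 22.4 ± 3.51 FPKM (fragments per kilobase of gene length, scaled to the depth of the library; mean ± SD, n = 3 libraries here and throughout) and KRT5 at 94.7 ± 5.99 FPKM. The exception was KRT14, the usual partner of KRT5, at 0.28 ± 0.0971 FPKM. KRT18, KRT8 and KRT19, keratins of simple epithelia, stood at 343 ± 31.2, 334 ± 27.8 and 633 ± 67.6 FPKM. Keratins such as KRT14, KRT8 and KRT18 have near-identical pseudogenes, so their counts are uncertain. Since PKP2, DSG2, DSC2 and DSP are also known from heart muscle, 3 cardiomyocyte markers were read, and their only count was 1 in Nc2. Summed counts, in the order Nc1, Nc2, Nc3, were 51, 46 and 69 for 6 fibroblast markers, 70, 51 and 45 for 4 endothelial markers and 14, 19 and 23 for 4 melanocyte markers. The 4 leukocyte markers summed to 165, 106 and 17 counts, and the 3 globin genes to 7336, 7457 and 3. Detected among these were COL1A1 and COL1A2 of fibroblasts, CDH5 of endothelium, PMEL of melanocytes and PTPRC of leukocytes. At 0 in all 3 libraries were COL3A1, DCN and LUM of fibroblasts, KDR of endothelium, and TYR and DCT of melanocytes. Nc1 and Nc2 thus held more globin and leukocyte counts than Nc3. The part of these transcripts' source in the levels below was not tested, and the level of each component in Nc3 alone stands among its values.

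The mean levels of the components were spread over a wide range. The largest step between neighbours in their order was 3.12 times, from DSC2 to PKP2. PERP and JUP stood highest, PKP3, PKP1, DSP and DSG2 followed, and DSC3, DSG3, PKP2 and DSC2 were lowest. Together the 10 genes took 2840, 2349 and 2630 CPM (counts scaled to the library total) in Nc1, Nc2 and Nc3. The mean level of PERP lay above that of 97.1% of the detected genes and that of DSC2 above that of 31.0%. In bulk RNA a lower level can come from fewer cells with the transcript or from less of it per cell, which cannot be told apart.

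DSP, the plakin that connects the plaque to keratin (ENSG00000096696, chromosome 6, 7541575 to 7586717, GRCh38), stood at 43.4, 37.9 and 41.0 FPKM in Nc1, Nc2 and Nc3, a mean of 40.8 ± 2.79 FPKM. It was highest in Nc1 and lowest in Nc2. JUP, the armadillo protein that binds the cadherin tails (ENSG00000173801, chromosome 17, 41754604 to 41786931), stood at 113, 124 and 133 FPKM, a mean of 123 ± 9.8 FPKM. Its lowest library was Nc1, the highest of DSP. JUP exceeded DSP per length in every library, by 2.6, 3.28 and 3.24 times in Nc1, Nc2 and Nc3 (mean 3.04 ± 0.379). The size of this ratio depends on the length used: it was 4.17 ± 0.52 with the longest transcript, 5.74 ± 0.715 with the coding length and 1.49 ± 0.186 in counts not divided by length. In each case the counts were those of the whole gene, also where only the coding length divided them.

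The plakophilins are armadillo proteins that cluster cadherins and DSP in the plaque. PKP3, present in all layers of epidermis (ENSG00000184363, chromosome 11, 392614 to 404908), stood at 60.4, 71.4 and 75.5 FPKM in Nc1, Nc2 and Nc3, a mean of 69.1 ± 7.85 FPKM. PKP1, best known from the upper layers, where its loss causes skin fragility (ENSG00000081277, chromosome 1, 201283452 to 201332993), stood at 45.7, 40.6 and 45.5 FPKM, a mean of 43.9 ± 2.87 FPKM. The ranges of this pair did not overlap, with PKP3 above PKP1 in all 3 libraries.

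PKP2, the plakophilin of heart and simple epithelia (ENSG00000057294, chromosome 12, 32790745 to 32896840), stood at 6.94, 5.43 and 6.15 FPKM, a mean of 6.18 ± 0.754 FPKM. It was far below the other plakophilins in each library. Of the summed plakophilin FPKM, PKP3 made 57.9 ± 3.92%, PKP1 36.9 ± 3.1% and PKP2 5.2 ± 0.821%. With the coding length as divisor PKP1 came first, at 49.2 ± 3.02%, against 44.1 ± 3.91% for PKP3, and in undivided counts the shares were 47.2 ± 2.94% and 45.2 ± 3.96%. This change of order was not found in every library: PKP1 exceeded PKP3 in Nc1 and Nc3 with coding lengths, and in Nc1 alone in undivided counts. PKP2 stayed lowest under each of these divisors.

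PERP, a small membrane protein of the tetraspan type that is a target of p63 and p53 and is needed for stable desmosomes in mouse epidermis (ENSG00000112378, chromosome 6, 138088505 to 138107511), stood at 144, 127 and 121 FPKM in Nc1, Nc2 and Nc3. Its mean was 131 ± 11.9 FPKM. Its range overlapped that of JUP, which it exceeded in Nc1 and Nc2 and not in Nc3.

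**Figure D1:**
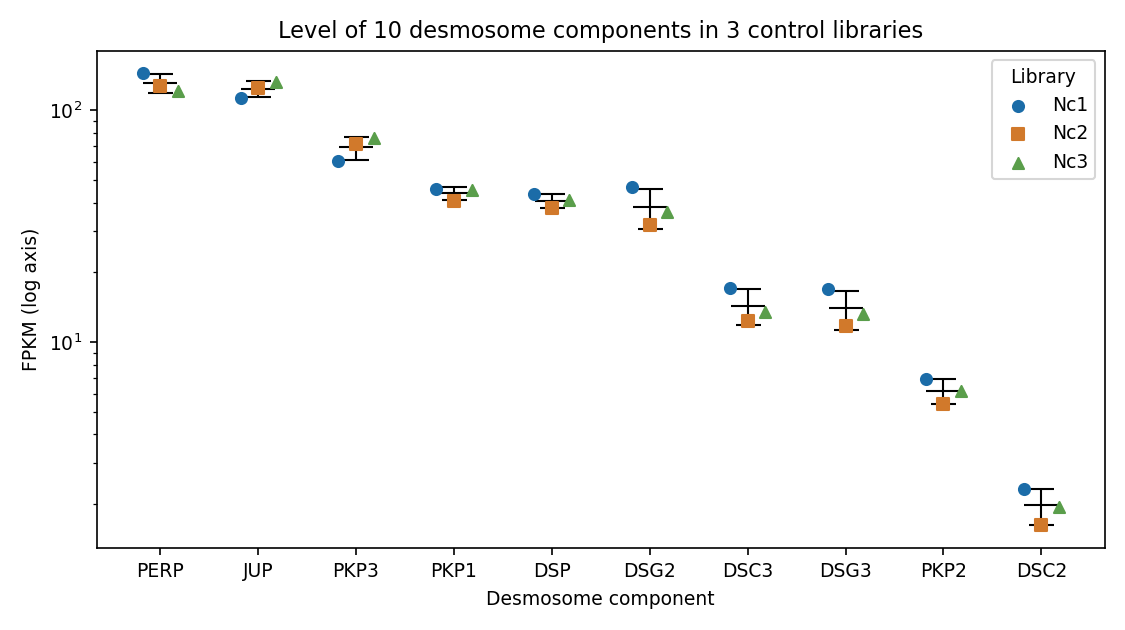
Level of each of the 10 components in FPKM on a log axis, with 1 point per control library and the mean and SD over the 3 libraries in black. PERP and JUP sit between 113 and 144, DSC2 between 1.64 and 2.34, and the library in which a gene is highest differs between genes.

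Among neighbours in the order of mean level, 5 of 9 pairs had ranges over the libraries that did not overlap: JUP above PKP3, PKP3 above PKP1, DSG2 above DSC3, DSG3 above PKP2 and PKP2 above DSC2. The other 4 pairs overlapped. PKP1 and DSP differed by 1.08 times in their means, and DSC3 and DSG3 by 1.03 times, though both pairs kept their order within each library. Which of PERP and JUP leads depends on the length and on 1 library. With the length of the longest transcript, JUP at 174 ± 13.8 FPKM came above PERP at 131 ± 11.9 FPKM. Counts of the whole gene divided by the coding length alone put PERP, at 970 ± 88.4, above JUP, at 273 ± 21.7. This scale is not FPKM of the coding part and raises genes with a short one. That of PERP is 579 of 4290 bases. Without Nc1, with the deposited length, JUP averaged 128 FPKM and PERP 124 FPKM. Division by the coding length also put PKP1, at 122 ± 7.95, before PKP3, at 109 ± 12.4. It likewise put DSG2, at 70.8 ± 13.9, before DSP, at 47.8 ± 3.27.

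The cadherin genes lie side by side on chromosome 18, and in these libraries the genes at both ends of the cluster were expressed while those in the middle were not detectable. From DSC3 to DSG2 the cluster spans 30990008 to 31549008 (GRCh38), 559 kb, and holds 7 desmosomal cadherin genes in the order DSC3, DSC2, DSC1, DSG1, DSG4, DSG3 and DSG2. DSC1, DSG1 and DSG4 had no count in Nc1, Nc2 or Nc3. DSG1 and DSC1 are the cadherins of the upper, differentiated layers, and DSG4 is that of hair follicles and the uppermost layers.

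DSG2, a desmoglein best known from simple epithelia and heart muscle (ENSG00000046604, 31498043 to 31549008, plus strand), stood at 46.7, 32.1 and 36.4 FPKM in Nc1, Nc2 and Nc3. Its mean was 38.4 ± 7.55 FPKM. DSG3, the desmoglein of basal layers and the main antigen of pemphigus vulgaris (ENSG00000134757, 31447795 to 31478702, plus strand), stood at 16.9, 11.7 and 13.3 FPKM, a mean of 14 ± 2.66 FPKM. Both were highest in Nc1 and lowest in Nc2, and DSG2 exceeded DSG3 by 2.76, 2.73 and 2.74 times, a ratio of 2.74 ± 0.0167. Counting alone gives DSG3 an error of 2.77%, so the SD of this ratio is smaller than its counting error.

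DSC3, the desmocollin of basal layers (ENSG00000134762, 30990008 to 31042815, minus strand), stood at 17.2, 12.4 and 13.4 FPKM in Nc1, Nc2 and Nc3, a mean of 14.3 ± 2.53 FPKM. DSC2, the widespread desmocollin (ENSG00000134755, 31058840 to 31102415, minus strand), stood at 2.34, 1.64 and 1.96 FPKM, a mean of 1.98 ± 0.352 FPKM. This is the lowest level of the 10, and the order of the libraries was again Nc1, Nc3, Nc2. DSC3 exceeded DSC2 by 7.26 ± 0.361 times.

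The deposited length of DSC2, 12371 bases, is the longest of the 10, against a coding length of 2703 bases. With coding lengths the ratio of DSC3 to DSC2 was 4.17 ± 0.207, and in counts not divided by length 4.14 ± 0.206, with DSC3 higher in every library in each case. The desmoglein that led its pair was thus DSG2, and the desmocollin that led was DSC3. Desmogleins summed to 52.4 ± 10.2 FPKM and desmocollins to 16.3 ± 2.88 FPKM, a ratio of 3.2 ± 0.0695.

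For a gene with no count in a library, a true mean of 3 counts was taken as the limit, although counting error does not exclude a higher one. For DSG1 this limit was 0.0321 FPKM in Nc1, 0.0368 FPKM in Nc2 and 0.0341 FPKM in Nc3. Per length and with this limit, DSG3 was at least 527, 319 and 390 times higher than DSG1 in Nc1, Nc2 and Nc3. DSG2 was at least 1457, 871 and 1068 times higher. DSC3 was at least 436, 274 and 321 times higher than DSC1. These multiples leave out the counting error of the expressed gene.

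The other 7 genes that the tables list in the cluster were non-coding. The 8 genes listed after DSC2 and before DSG3, coding and non-coding, had no count in any of the 3 libraries, and 345 kb separate the pair. DSG2-AS1, an antisense gene that overlaps the end of DSG2, had 1, 1 and 3 counts, and AC021549.1, just before DSG2, had 2, 1 and 0. DSCAS, which overlaps the start of DSC2 on the other strand, had none. The strand setting of the counting is not given, so reads of a gene and its antisense partner cannot be told apart where they overlap.

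**Figure D2:**
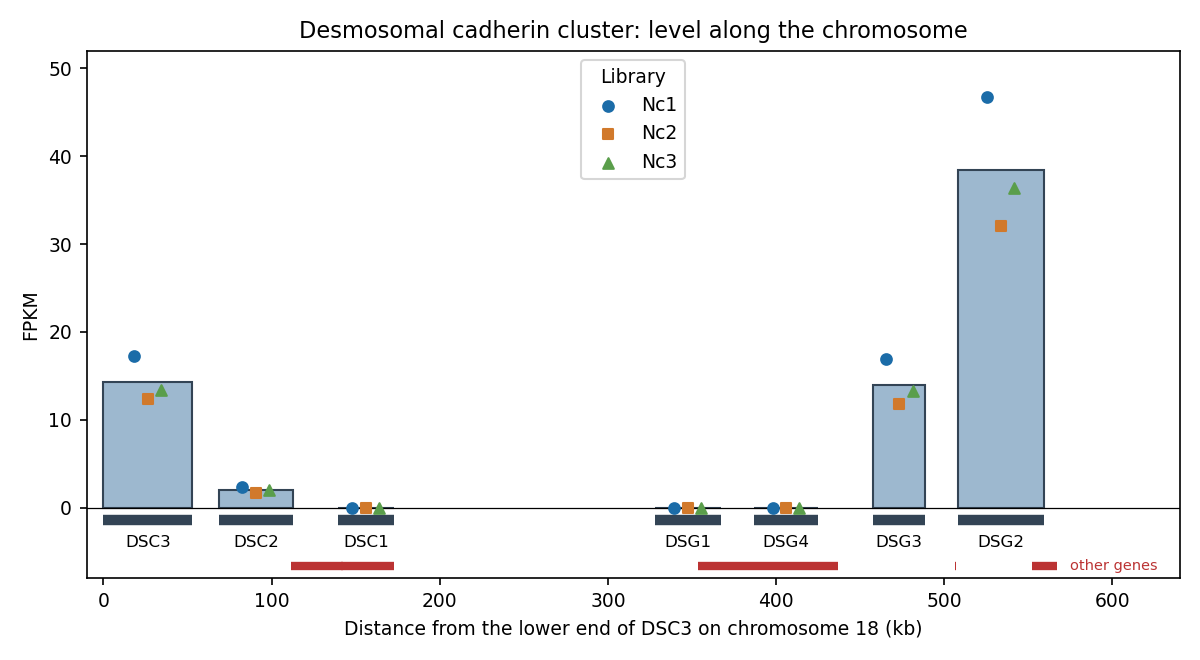
Level of the 7 desmosomal cadherin genes in FPKM against distance in kb from the lower end of DSC3 on chromosome 18. Bars give the mean over 3 control libraries and span each gene, points are libraries, and red lines mark the other annotated genes. DSC1, DSG1 and DSG4 are at 0 in each library, between DSC2 at 1.98 and DSG3 at 14.

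Promoter windows from RefSeq (GRCh38.p14), 250 bases before to 50 after an annotated start, are shown for 3 expressed cadherin genes and then 2 genes at 0, because they differ in their content of CG dinucleotides. Capitals mark each CG. The windows are chr18:31497927-31498226 of DSG2 and chr18:31447491-31447790 of DSG3 on the plus strand, chr18:31042693-31042992 of DSC3 on the minus strand, chr18:31317910-31318209 of DSG1 on the plus strand and chr18:31162807-31163106 of DSC1 on the minus strand.
DSG2: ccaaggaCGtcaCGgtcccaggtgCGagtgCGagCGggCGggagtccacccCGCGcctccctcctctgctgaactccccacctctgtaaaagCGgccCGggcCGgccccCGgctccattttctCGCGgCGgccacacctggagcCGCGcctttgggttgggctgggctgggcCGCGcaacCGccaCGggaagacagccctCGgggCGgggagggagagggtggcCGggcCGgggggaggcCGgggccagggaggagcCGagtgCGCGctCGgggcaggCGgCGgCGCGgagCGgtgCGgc
DSG3: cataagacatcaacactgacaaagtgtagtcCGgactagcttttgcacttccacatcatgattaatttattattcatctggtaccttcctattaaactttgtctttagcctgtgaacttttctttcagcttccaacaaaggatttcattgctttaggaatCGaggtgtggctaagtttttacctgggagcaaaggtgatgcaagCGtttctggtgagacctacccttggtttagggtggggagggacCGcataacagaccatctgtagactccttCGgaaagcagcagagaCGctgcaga
DSC3: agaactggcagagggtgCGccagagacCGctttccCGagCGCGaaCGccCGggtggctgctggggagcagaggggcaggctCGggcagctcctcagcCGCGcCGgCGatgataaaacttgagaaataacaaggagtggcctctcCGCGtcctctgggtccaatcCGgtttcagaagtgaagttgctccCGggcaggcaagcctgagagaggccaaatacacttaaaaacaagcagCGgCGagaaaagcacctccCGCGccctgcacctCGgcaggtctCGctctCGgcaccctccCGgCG
DSG1: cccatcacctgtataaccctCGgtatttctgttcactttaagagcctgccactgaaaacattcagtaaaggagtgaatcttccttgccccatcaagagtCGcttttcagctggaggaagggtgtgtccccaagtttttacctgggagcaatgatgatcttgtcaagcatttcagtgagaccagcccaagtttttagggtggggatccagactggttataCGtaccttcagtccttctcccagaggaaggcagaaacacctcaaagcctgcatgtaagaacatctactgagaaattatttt
DSC1: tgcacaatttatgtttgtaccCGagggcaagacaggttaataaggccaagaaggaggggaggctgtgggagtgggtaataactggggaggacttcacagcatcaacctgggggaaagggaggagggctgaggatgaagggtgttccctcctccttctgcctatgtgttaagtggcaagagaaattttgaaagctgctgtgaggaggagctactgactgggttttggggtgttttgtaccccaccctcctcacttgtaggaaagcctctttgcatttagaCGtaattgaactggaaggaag

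The windows of DSG2 and DSC3 held 36 and 25 CG dinucleotides, more than 87.3% and 68.0% of the 35116 windows in the RefSeq table, whose median was 14. DSG3, although expressed, held 6, which put it nearer to the genes at 0, as DSG1 held 3 and DSC1 held 2. DSC2 has a pair of annotated starts, with 15 and 22. Among the other components the number was 43 for PERP, 37 for DSP, 19 for PKP1 and 23 or 19 at the starts of JUP. DSG4, PKP2 and PKP3 have no window in the table. CG content was not measured against expression beyond these genes, and methylation was not measured.

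DSG1 and DSG3, both on the plus strand, share a run of 20 bases in these windows, shown because one gene is at 0 and the other expressed: aagtttttacctgggagcaa. It starts at base 131 of the DSG1 window and base 173 of the DSG3 window, and these 2 windows are the only ones of the 35116 that hold it on either strand. No other pair of the 5 windows printed shares a run of more than 9 bases when each is read along its gene.

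The 8 components with a window have 10 windows in all, since JUP and DSC2 have a pair each, and 4 short motifs, none of which contains another, were searched in them on both strands. The GC box GGGCGG was found in 7 of the 10 windows, those of DSG2, DSP, PERP and PKP1, both of DSC2 and 1 of JUP, and in 45.0% of all windows. CAGGTG, the core of an E-box, was found in 4 of the 10, those of DSG2 and DSP, 1 of DSC2 and the other of JUP, and in 20.6% of all windows. TGANTCA, the AP-1 motif, was found in 1, that of PERP, and in 7.71% of all windows, and TATAAA in none of the 10 and in 11.5% of all. A match here is a run of letters, not a bound site.

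The plaque genes and the cadherins did not keep the same proportion in the 3 libraries. The 5 plaque genes DSP, JUP, PKP1, PKP2 and PKP3 summed to 269.6, 279.6 and 301 FPKM in Nc1, Nc2 and Nc3. The 4 cadherins summed to 83.2, 57.8 and 65.0 FPKM. The ratio of plaque genes to cadherins was 3.24, 4.84 and 4.63 (mean 4.23 ± 0.868), lowest in Nc1. Not all plaque genes moved apart from the cadherins: JUP and PKP3 were lowest in Nc1. DSP, PKP1 and PKP2 were highest in Nc1 and lowest in Nc2, as the cadherins were. JUP and PKP3 also had 61.5% and 66.7% G and C in their longest transcripts, against 38.9% to 42.4% for the cadherins. The part of this GC content in the ratio was not tested. The ratio of desmogleins to desmocollins stayed between 3.12 and 3.26.

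**Figure D3:**
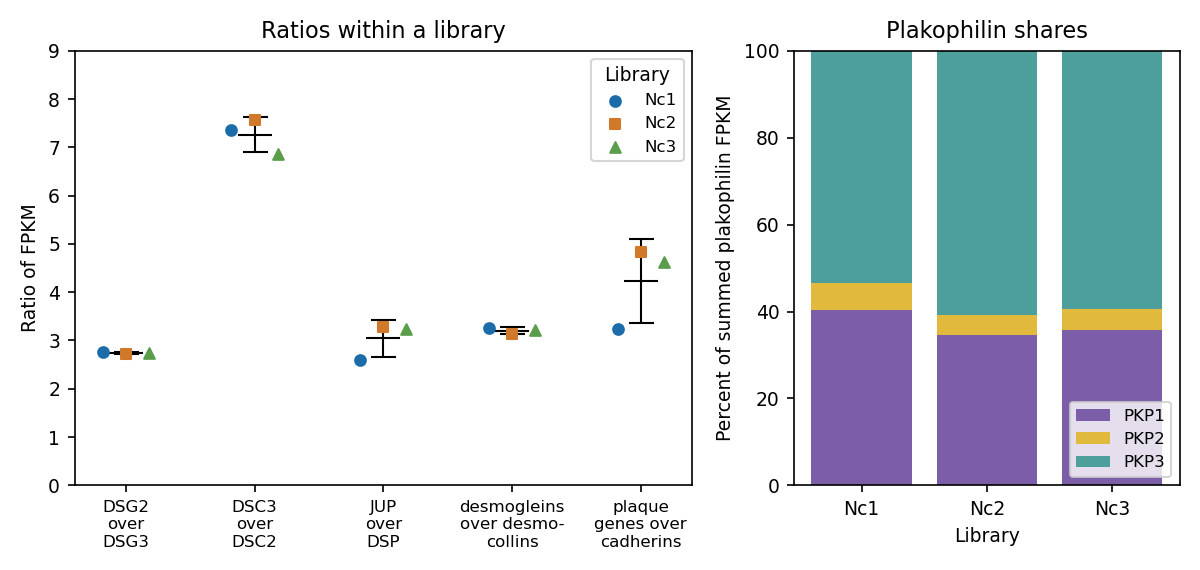
Left, ratios of FPKM within each of 3 control libraries (points) with the mean and SD in black. Right, shares of PKP1, PKP2 and PKP3 in the summed plakophilin FPKM of each library, in percent. DSG2 over DSG3 lies between 2.73 and 2.76, a spread below its counting error, while plaque genes over cadherins run between 3.24 and 4.84.

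Each gene was tested for a single rate in all control libraries with a chi-square test, Benjamini-Hochberg adjusted over all genes tested, at 0.05. All 10 components varied beyond counting noise. So did 7536 of the 13290 genes tested, or 56.7%, and 6866 of the 9706 genes that averaged 100 counts or more, where all 10 belong. TMM, the trimmed mean of M-values, sets libraries to a common size. On TMM-scaled counts the coefficient of variation of the components had a median of 11.7%, beside 11.8% for those 9706 genes. Those genes were not matched to the components in counts. For the components it ran from 4.73% for DSP to 17.1% for DSG2. Counting alone would give between 0.992% for JUP and 4.93% for DSC2. Without Nc1 the call was kept by 6 of the 10, beside 2438 of 13244 genes, or 18.4%, and the adjusted p was 0.13 for PKP2, 0.0904 for PKP3, 0.0955 for DSC2 and 0.156 for DSC3. Without Nc2 it was also kept by 6, beside 5988 of 13321 genes, or 45.0%, and the adjusted p was 0.346 for DSP, 0.156 for PKP1, 0.18 for PKP2 and 0.0729 for DSC2. Without Nc3 it was kept by all 10, beside 7068 of 13333 genes, or 53.0%.

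The 4 cadherins shared 1 order of the libraries. On TMM-scaled counts each was highest in Nc1, next in Nc3 and lowest in Nc2, as were DSP and PKP2. This order was found in 28.3% of all 13290 genes, and in a larger share of genes with a GC content like that of the cadherins, given below. The log2 difference of Nc1 minus Nc2 was 0.48 ± 0.03 for DSG2, 0.46 ± 0.06 for DSG3, 0.45 ± 0.10 for DSC2 and 0.41 ± 0.05 for DSC3, where the error is the counting error of the 2 libraries. It was 0.29 ± 0.08 for PKP2, 0.13 ± 0.02 for DSP, 0.11 ± 0.02 for PERP and 0.10 ± 0.03 for PKP1. JUP and PKP3 went the other way, with -0.20 ± 0.02 and -0.31 ± 0.03. When scaled by library totals, under which the median of all tested genes was 0.21 instead of 0.0017, JUP was at 0.0069, which is below that median as it is with TMM.

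The GC content of the transcripts moved with these differences over all tested genes and, with exceptions, among the components. The longest transcripts of the cadherins had between 38.9% and 42.4% G and C, that of PERP 41.2%, those of PKP2 and DSP 46.6% and 47.9%, that of PKP1 56.4%, and those of JUP and PKP3 61.5% and 66.7%. Over 13282 tested genes cut into 5 equal bins of rising GC content, the median log2 difference of Nc1 minus Nc2 was 0.32, 0.23, 0.04, -0.18 and -0.36. DSC2 and DSC3 belong to the first of these bins, DSG2, DSG3 and PERP to the second, DSP and PKP2 to the third, PKP1 to the fourth and JUP and PKP3 to the fifth. PERP, at 0.11, lay below the median of its bin, and the other components lay above that of theirs, PKP1 at 0.10 against -0.18. The order Nc1, Nc3, Nc2 was held by 54.6% of genes in the bin of lowest GC content, that of DSC2 and DSC3. It was held by 44.4% in the second, that of DSG2 and DSG3, and by 2.56% in that of the highest. Transcript length moved too, with medians of -0.40 in the bin of shortest transcripts and 0.24 in that of the longest. The bin of longest transcripts, which holds DSC2, DSC3, DSG2 and DSP, had 50.1% of its genes in that order. The part of GC content and length in the differences between components was not tested.

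**Figure D4:**
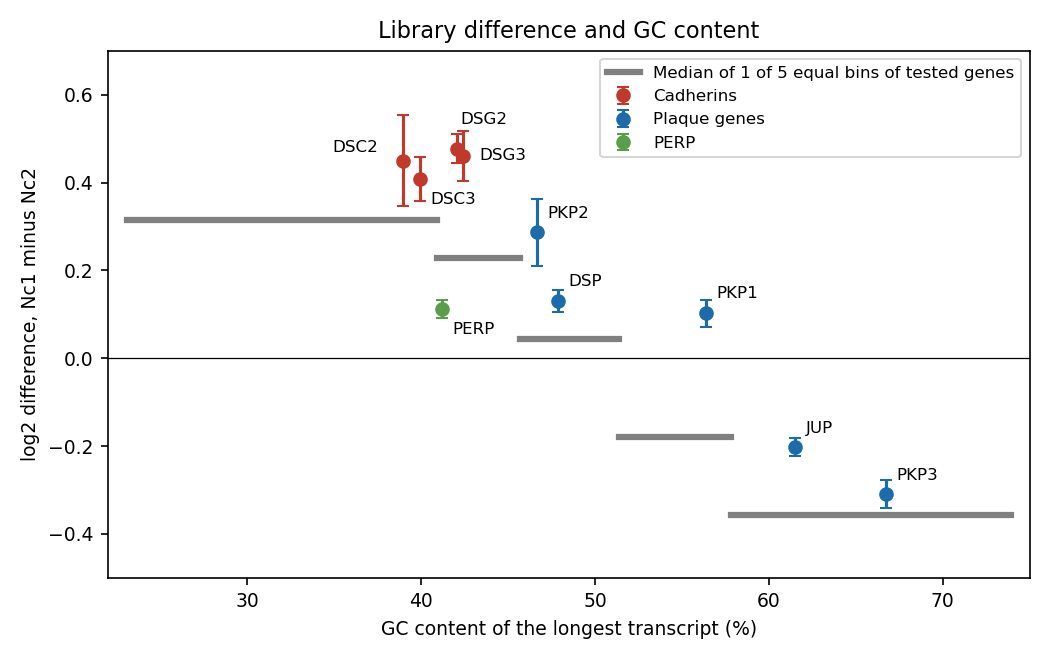
The log2 difference of Nc1 minus Nc2 (TMM-scaled counts) against the GC content of the longest transcript in percent. Points are the 10 components with counting error, and grey lines give the median of each of 5 equal bins of tested genes over its range of GC content. The 4 cadherins lie between 0.41 and 0.48, and PKP3 lies at -0.31.

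Other genes of cell adhesion were read from lists for comparison of levels. Of 5 further desmosome genes only PKP4, a plakophilin relative found mostly at other junctions, was detected, at 7.77 ± 1.03 FPKM, and CDSN, the corneodesmosin of the outermost layers, had no count, nor had DSC1, DSG1 and DSG4. All 5 plakins of a list of linkers were detected. PLEC, plectin, stood at 20.5 ± 1.5 FPKM, PPL, periplakin, at 8.36 ± 0.382 FPKM and EVPL, envoplakin, at 4.26 ± 0.477 FPKM, each below DSP.

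All 10 genes of the adherens junction, the actin-linked counterpart of the desmosome, were detected. P-cadherin, CDH3, stood at 38 ± 1.81 FPKM and E-cadherin, CDH1, at 20.6 ± 2.63 FPKM. CTNNB1, beta-catenin and the closest relative of plakoglobin, stood at 20 ± 2.86 FPKM, below JUP in every library. All 10 tight junction genes were detected, with the claudin CLDN7 at 120 ± 18.6 FPKM and CLDN1 at 55.2 ± 6.97 FPKM. Of 9 keratins, the filaments that DSP holds, 7 were detected, and KRT7 at 1025 ± 132 FPKM was the highest.

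All 6 hemidesmosome genes were detected, with COL17A1 at 114 ± 10.8 FPKM. The median level of the 10 components was 39.6 FPKM, beside 20.3 for the adherens junction list, 5.32 for the tight junction list and 53.7 for the hemidesmosome list. By the same test, 8 of 10 adherens junction genes, 6 of 10 tight junction genes and 4 of 5 plakins varied between libraries beyond counting noise. So did 7 of 8 tested keratins and 6 of 6 hemidesmosome genes. Of all genes tested 7536 of 13290, or 56.7%, varied, and 6866 of the 9706 that averaged 100 counts or more.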

How the data were processed

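RNA of HaCaT cells was sequenced in 9 samples, 3 in each of 3 groups. FastQC, HISAT2, StringTie and the GRCh38 build are listed, without version or role, per the submitters' processing notes. Not given in the sources used here are the counter, the annotation, the strand setting and the handling of multiply mapped reads. The deposited counts are whole numbers per gene with no normalization. The deposited FPKM were made by the authors, and on the control columns each equals the count divided by gene length and a constant of the library, 1.05, 0.949 and 1.00 times the totals of Nc1, Nc2 and Nc3.

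The other 6 library columns in each table, 12 in all, matched no label and were not used. The 3 planned comparisons between groups and their 18 alternatives were therefore not run, nor a search for genes of like pattern, which needs more libraries. The components, the gene lists and the tests were chosen with earlier results of these data known. The named genes are, by rule, all 10 components with the value in every library, and members of the 6 related lists by counts and examples, which were picked after their values were seen.

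TMM factors came from edgeR 4.0.16 and alternative size factors from DESeq2 1.42.0 in R 4.3.3, and no edgeR or DESeq2 test was run. Genes averaging 10 or more counts entered the chi-square test. It was tried on counts simulated with counting noise, some genes being changed in 1 library. That setting lacks the shifts with GC content and length, so it does not show how the test behaves under them. Without separate cultures in the labels, the test measures variation between libraries only. GC content and lengths came from GENCODE release 29, and promoters from RefSeq, matched by symbol for 8 of the 10 components. Other steps used Python 3.11.15 with pandas 2.3.3, NumPy 2.4.6, SciPy 1.17.1 and matplotlib 3.10.9.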

Additional observations from a re-analysis of the deposited data

How the results depend on the processing

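No paired analysis was possible because values of a single group, the control, entered the tests. All 10 components were also detected with at least 1 count or at least 1 FPKM in each library. The 7536 genes varying beyond counting noise became between 2438, without Nc1, and 7068, without Nc3, when 1 library was left out, and the 10 components became between 6 and 10. Each of these fits has 2 libraries, and the cause of the lower count without Nc1 was not tested. Library totals, DESeq2 factors and a mean of at least 100 counts kept all 10 calls. Library totals raised the log2 difference of every component by the same amount, by construction: JUP to 0.0069, against -0.20, PKP3 to -0.10, against -0.31, PKP1 to 0.31, against 0.10, PERP to 0.32, against 0.11, DSP to 0.34, against 0.13, and PKP2 to 0.50, against 0.29, while the 4 cadherins lay between 0.62 and 0.69.

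Ratios follow the length used, by construction. The counts were those of the whole gene under every length, the coding length included. Undivided counts gave 3.07 for DSG2 over DSG3, 4.14 for DSC3 over DSC2, 1.49 for JUP over DSP and 2.5 for desmogleins over desmocollins, with plakophilin shares of 47.2%, 7.54% and 45.2% for PKP1, PKP2 and PKP3. The longest transcript, chosen after seeing the data as was the coding length, gave 2.91 for DSG2 over DSG3, 4.17 for JUP over DSP, 3.31 for desmogleins over desmocollins, 5.33 for plaque genes over cadherins, and shares of 32.7% for PKP1 and 6.62% for PKP2. Coding lengths gave 4.17 for DSC3 over DSC2, 5.74 for JUP over DSP, 2.06 for desmogleins over desmocollins, and shares of 49.2%, 6.66% and 44.1%. The 5 neighbours whose ranges did not overlap became 7 with either length. A mean of 3 libraries cannot move by more than 0.577 SD when 1 is left out, so that comparison of levels shows nothing about stability. Genes at 0 were given a limit of 3 counts per library, which is a choice.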
